A study of Homo sapiens with 12 samples.

Results

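OCI-AML3, a human acute myeloid leukaemia cell line, was compared with 2 other such lines, MOLM-14 and MV4-11, across all genes. The comparison took 9 of the 12 libraries of the series by the labelled cell line: 3 of OCI-AML3, 3 of MOLM-14 and 3 of MV4-11. The 3 libraries of a further line, KG-1a, were left out. Within each line, 1 library came from cells given 10 µM pioglitazone, 1 from cells given 10 µM darglitazone and 1 from cells given DMSO as control, all for 12 h. Both drugs are thiazolidinediones, agonists of the nuclear receptor PPARγ. Libraries were made from total RNA by a stranded protocol after depletion of ribosomal RNA. The treatment was a term of the model, so the values below are differences between lines with the mean effect of the drugs taken out.

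The lines are widely used models of different genetic classes of the disease. OCI-AML3 is known to carry a mutation of NPM1, which moves nucleophosmin from the nucleolus to the cytoplasm. MOLM-14 and MV4-11 are known to carry a fusion of KMT2A, a histone methyltransferase that keeps HOX genes active, and an internal tandem duplication of FLT3, a receptor that then signals without its ligand through STAT5. The labels give the name of the line and the disease only, and gene counts show neither a fusion nor a mutation, so the lines are called by name here. Each line is derived from 1 patient and OCI-AML3 stands alone on its side of the comparison. A difference between OCI-AML3 and both other lines therefore cannot be told apart from any other difference between these cultures, and p-values measure only the spread between these libraries. With 1 library per line and treatment, fewer cells of a type and less RNA per cell also cannot be told apart.

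The libraries differed widely in depth, from 1095491 to 64236554 estimated counts, and both extremes were OCI-AML3: the pioglitazone library was the shallowest and the DMSO library the deepest. In the shallow library, 3 counts corresponded to 2.738 CPM, a unit in which counts are divided by the scaled size of their library, against 0.047 to 0.398 CPM in the other 8. That library also held 6.174% of its counts in a ribosomal RNA entry, against 0.042 to 0.542% in the others. For 67 genes specific to KG-1a, the median in that library was 2.066% of the level in KG-1a, against 0.116% and 0.128% in the other OCI-AML3 libraries. In the MV4-11 DMSO library, the median of 12 genes specific to OCI-AML3 was 1.51% of the level in that line, against 0.055% and 0.133% in the other MV4-11 libraries. For 4 genes specific to MOLM-14 the median was 2.187% of the MOLM-14 level in MV4-11 DMSO and 1.287% in MV4-11 darglitazone, against 0.049% in MV4-11 pioglitazone. Each gene was chosen to be under 1% of that level in at least 1 library of the line examined, so low values there follow from the choice. Whether such counts came from another line's library or from the cells themselves was not tested. OCI-AML3 pioglitazone and MV4-11 DMSO were left out together as an alternative, chosen after these values had been seen. All 9 libraries expressed the myeloid regulators SPI1, at 107.6 to 224 CPM in OCI-AML3 and 103 to 243 CPM in the other lines, and CEBPA, at 144 to 335 CPM in OCI-AML3 and 329.8 to 531 CPM in the others.

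A gene was called where its adjusted p was under 0.05 in 3 contrasts with the same sign: OCI-AML3 against the mean of MOLM-14 and MV4-11, against MOLM-14 and against MV4-11 (edgeR's quasi-likelihood F test, Benjamini-Hochberg adjustment over 16120 genes). By this rule 1267 genes (7.86%) were higher in OCI-AML3 and 1382 (8.57%) were lower. Against the mean of both lines alone, 2883 genes (17.9%) were higher and 2773 (17.2%) lower. Against MOLM-14, 2370 (14.7%) were higher and 2654 (16.5%) lower, and against MV4-11, 3017 (18.7%) were higher and 3061 (19%) lower. When MOLM-14 and MV4-11 were fitted as a single group, so that the difference between them counted as spread, 777 genes were higher and 838 lower, of which 776 and 837 were among those called by the rule of 3 contrasts. A call in that fit rests on 1 contrast alone, here and in the counts of lists below. The median difference over all genes tested was -0.002 on the log2 scale, and the median size of a difference was 0.53. A gene that passed the filter on low counts only through the line where it is high had to differ, so counts over the tested members of a list describe those members and not the whole list. Counts called in a list stand beside the shares of all genes, 7.86% higher and 8.57% lower. The differences below are log2 values of OCI-AML3 minus the mean of the other lines, with the standard error (SE) of the fit.

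**Figure D1:**
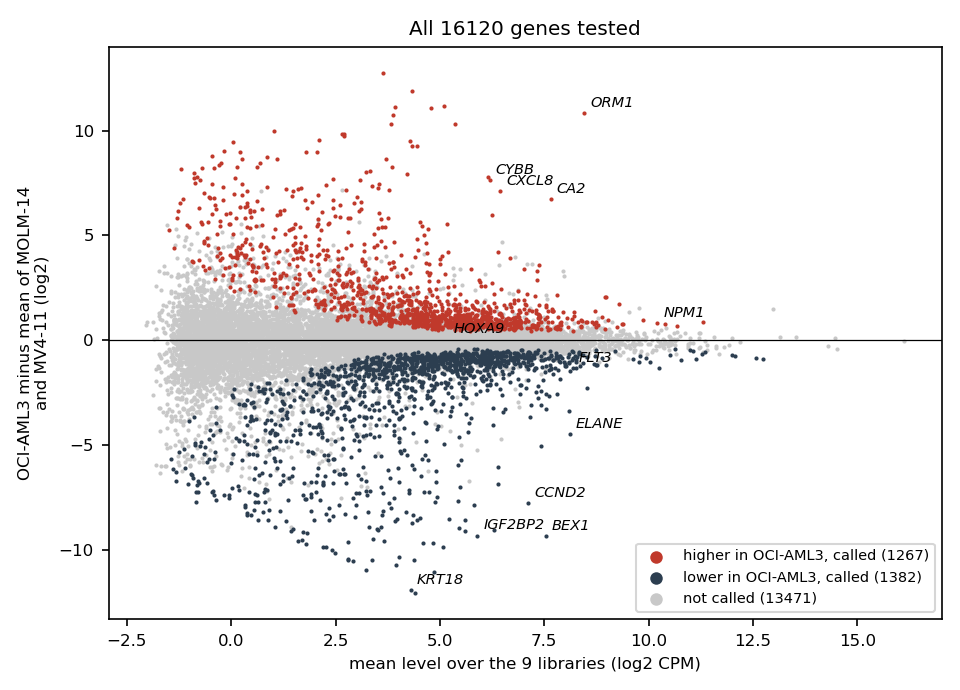
Each point is a gene, with its mean level over the 9 libraries in log2 CPM on the x axis and the log2 difference of OCI-AML3 minus the mean of MOLM-14 and MV4-11 on the y axis. The 1267 called higher and 1382 called lower are coloured; ORM1 stands out at a high level, and KRT18 had no count in OCI-AML3, so its fitted position depends on the prior count.

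Of all protein-coding genes called higher, ORM1 had the widest gap between OCI-AML3 and the other lines. It encodes orosomucoid, a plasma glycoprotein of the acute phase response that neutrophils also store in their granules (chromosome 9, 114323056 to 114326475, plus strand). ORM1 had, with pioglitazone, darglitazone and DMSO in this order, 1071, 763 and 1319 CPM in OCI-AML3, against 0.177, 0.109 and 0.138 CPM in MOLM-14 and 0.934, 0.958 and 13.2 CPM in MV4-11. The difference was 10.84 (SE 0.75, adjusted p = 0.000366). The lines did not overlap, and the highest value outside OCI-AML3 was that of the MV4-11 DMSO library. ORM2, its neighbouring copy, had 6.12, 17.6 and 27.6 CPM in OCI-AML3, against 0 CPM in all 3 MOLM-14 libraries and 0, 0.0618 and 0.106 CPM in MV4-11. Of the 50-base windows of the longest transcript, ORM1 shares 47.4% and ORM2 50.2% with another gene, so how the counts divide between them is uncertain. CA2 encodes a carbonic anhydrase of red cells and many other cells (chromosome 8, 85463852 to 85481493, plus strand). It had 588, 669 and 519.6 CPM in OCI-AML3, against 12.6, 12.8 and 15.6 CPM in MOLM-14 and 0.133, 0.803 and 8.93 CPM in MV4-11. Its difference was 6.74 (SE 0.80, adjusted p = 0.00378). All 3 OCI-AML3 libraries stood far above the other 6, yet the call was lost in 5 of the 9 fits that each left out 1 library (without any 1 MOLM-14 library, OCI-AML3 pioglitazone or OCI-AML3 darglitazone), with differences of 6.31 to 6.90.

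The following protein-coding genes with wide gaps on the high side were low in both other lines. CYBB, the catalytic subunit of the phagocyte NADPH oxidase, had 167, 303 and 189 CPM in OCI-AML3, against 0.798, 0.546 and 0.412 CPM in MOLM-14 and 0.667, 1.48 and 4.36 CPM in MV4-11. It differed by 7.64 (SE 0.43, adjusted p = 1.6e-05). FEZ1, an adaptor of kinesin transport, had 236, 179.5 and 234 CPM in OCI-AML3, against 0.842, 0.983 and 0.481 CPM in MOLM-14 and 1.2, 0.618 and 3.08 CPM in MV4-11. The difference was 7.79 (SE 0.32, adjusted p = 1.4e-07). Where a line had no count, or 3 or fewer over its 3 libraries, the fitted difference depends on the prior count, and levels are given without it. MMRN1, a carrier of coagulation factor V in platelets, had 129.5, 119.5 and 134 CPM in OCI-AML3, against 0.0443, 0 and 0 CPM in MOLM-14 and 0, 0.216 and 1.59 CPM in MV4-11 (adjusted p = 1.21e-06). LPL, lipoprotein lipase, had 83.1, 83.2 and 95.5 CPM in OCI-AML3, against 0 CPM in all 3 MOLM-14 libraries and 0, 0.0309 and 1.38 CPM in MV4-11 (adjusted p = 0.00388). In both of these genes the MV4-11 DMSO library was the highest outside OCI-AML3.

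Cell surface and testis genes made up the remainder of that group. ADGRG6, an adhesion receptor coupled to G proteins, had 77, 68.6 and 66.9 CPM in OCI-AML3, against 0.0443, 0.109 and 0.0344 CPM in MOLM-14 and 0, 0.0309 and 1.06 CPM in MV4-11. CLEC2A, a C-type lectin, had 64.8, 46.9 and 44.2 CPM in OCI-AML3 and, of the other 6 libraries, was detected in MV4-11 DMSO alone, at 0.425 CPM. CD69, a lectin of activated leukocytes, had 58.6, 72 and 61.2 CPM in OCI-AML3, against 0.0887, 0 and 0 CPM in MOLM-14 and 0, 0.0927 and 1.06 CPM in MV4-11. PRSS21, a serine protease of testis, had 55.1, 60.6 and 69.5 CPM in OCI-AML3, against 0, 0.109 and 0.0344 CPM in MOLM-14 and 0, 0.0309 and 0.85 CPM in MV4-11. CT45A10, a member of a cancer-testis family on the X chromosome, had 59.5, 42.6 and 91 CPM in OCI-AML3 and was detected outside that line in MV4-11 DMSO alone, at 0.213 CPM. CT45A10 shares 70.6% of its windows with other genes, so its counts are uncertain. All 5 genes were called.

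**Figure D2:**
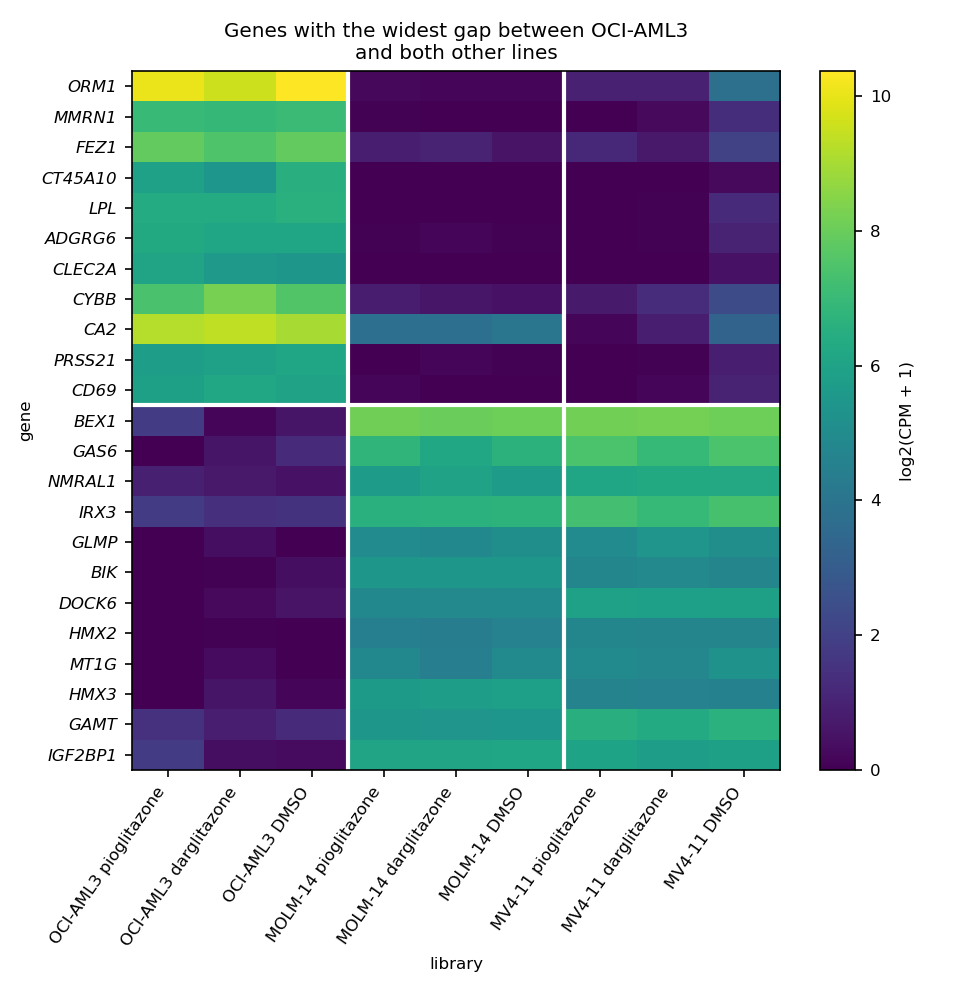
Colour gives log2(CPM + 1) for protein-coding genes with the widest gaps on each side (rows) in the 9 libraries (columns, grouped by line). The rows above the white line are bright in OCI-AML3 and dark elsewhere except for weak signal in MV4-11 DMSO and CA2 in MOLM-14, and the rows below it are dark in OCI-AML3.

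On the low side, several genes that were abundant in both other lines were nearly silent in OCI-AML3. BEX1, a small adaptor protein first described in brain (chromosome X, 103062651 to 103064240, minus strand), had 2.62, 0.0977 and 0.488 CPM in OCI-AML3, against 278, 254 and 268 CPM in MOLM-14 and 285, 291 and 272 CPM in MV4-11. Its difference was -9.35 (SE 0.42, adjusted p = 5.92e-08). GAS6, the ligand of the receptor tyrosine kinases AXL, TYRO3 and MERTK, had 0, 0.488 and 1.45 CPM in OCI-AML3, against 109, 72.7 and 102 CPM in MOLM-14 and 173, 123 and 169 CPM in MV4-11. It differed by -6.88 (SE 0.28, adjusted p = 4.19e-09). IRX3, a homeobox factor, had 2.62, 1.61 and 1.89 CPM in OCI-AML3, against 95.8, 97 and 103 CPM in MOLM-14 and 153, 122 and 161 CPM in MV4-11. The difference was -6.05 (SE 0.21, adjusted p = 1.24e-09). HMX2 and HMX3, neighbouring homeobox genes on chromosome 10, were low together: HMX3 had 0, 0.488 and 0.126 CPM in OCI-AML3, against 49.6, 55.8 and 57.3 CPM in MOLM-14 and 24.1, 23.3 and 22.7 CPM in MV4-11, and HMX2 had a single count in the 3 OCI-AML3 libraries, against 19.2 to 23.1 CPM in MOLM-14 and 25.4 to 25.8 CPM in MV4-11.

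The RNA-binding proteins IGF2BP1 and IGF2BP2 were both lower in OCI-AML3. IGF2BP1 had 2.62, 0.293 and 0.22 CPM in OCI-AML3, against 66.3, 65.2 and 66.5 CPM in MOLM-14 and 64.4, 54.1 and 58.8 CPM in MV4-11, a difference of -7.68 (SE 0.37, adjusted p = 1.39e-08), and IGF2BP2, also on the list of KMT2A fusion targets, had 5.25, 0.0977 and 0.0157 CPM in OCI-AML3, against 79.5, 69.9 and 76 CPM in MOLM-14 and 104, 92.2 and 100.3 CPM in MV4-11. Its difference was -9.34 (SE 1.05, adjusted p = 0.00164). For both genes the highest OCI-AML3 value was that of the shallow pioglitazone library, with 3 counts for IGF2BP1 and 6 for IGF2BP2, whose source was not tested. BIK, a protein of the BCL2 family that promotes apoptosis, had 0, 0.0488 and 0.299 CPM in OCI-AML3, against 43.9, 43.7 and 43.5 CPM in MOLM-14 and 26.1, 28.8 and 25.5 CPM in MV4-11. The remaining 5 of the 12 genes were NMRAL1, a redox sensor with a difference of -7.02 (SE 0.24), GLMP, a lysosomal membrane protein with -8.47 (SE 0.52), DOCK6, an activator of RAC1 and CDC42 with -6.80 (SE 0.29), MT1G, a metallothionein with -8.73 (SE 0.64), and GAMT, an enzyme of creatine synthesis with -5.72 (SE 0.22).

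Among long noncoding RNAs, LINC02591 had 34.1, 27 and 47.8 CPM in OCI-AML3, against 0, 0.656 and 0.172 CPM in MOLM-14 and 0, 0.247 and 0.638 CPM in MV4-11, and PAX8-AS1 had 24.5, 15.9 and 17.1 CPM in OCI-AML3, against 0.31, 0.437 and 0.0688 CPM in MOLM-14 and 0, 0.309 and 0.85 CPM in MV4-11. LINC00200 had 11.4, 24.4 and 21.5 CPM in OCI-AML3, against at most 0.319 CPM in any other library. All 3 were called higher. BALR6 was lower in OCI-AML3, with 0, 0.195 and 0.912 CPM in OCI-AML3, against 13.6, 13.1 and 10.9 CPM in MOLM-14 and 17.6, 19.6 and 15.7 CPM in MV4-11, as were MIR124-1HG, with a difference of -2.20 (SE 0.29), and LINC02982, with -2.80 (SE 0.43).

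Neutrophils fill their granules in stages: primary granule enzymes are made by promyelocytes, and secondary granule proteins later. Of 26 late neutrophil genes listed, 10 were expressed highly enough to be tested, and ORM2, CEACAM6 and TCN1 passed that filter only through OCI-AML3, so their number called is not read as a result about the list. The summed level of the list was 1031 to 1661 CPM in OCI-AML3, against 55 to 63.6 CPM in MOLM-14 and 145 to 154 CPM in MV4-11. ORM1 made up most of the OCI-AML3 sum. CEACAM6, an adhesion molecule of granulocytes, had 22.8, 28.5 and 39.6 CPM in OCI-AML3, against 0.0443, 0 and 0 CPM in MOLM-14 and 0.133, 0.618 and 0.85 CPM in MV4-11. S100P, a calcium-binding protein, had 61.2, 63.4 and 66 CPM in OCI-AML3, against 4.26, 5.46 and 5.57 CPM in MOLM-14 and 0.934, 0.711 and 1.59 CPM in MV4-11. It differed by 4.83 (SE 0.20, adjusted p = 4.05e-09). TCN1, the vitamin B12 carrier of secondary granules, was low throughout, with 0.875, 1.27 and 3.63 CPM in OCI-AML3, against 0.266, 0 and 0 CPM in MOLM-14 and 0, 0.0309 and 0 CPM in MV4-11, and lost its call without MOLM-14 DMSO, MOLM-14 darglitazone or OCI-AML3 DMSO. The other 16 late neutrophil genes did not pass the filter on low counts, and 5 of them had no count in any of the 9 libraries, so most of the list was not tested. Among the 16, LTF had at most 0.267 CPM, CAMP at most 0.875 CPM and LCN2 0 CPM in any of the 9 libraries.

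Of 18 tested genes on the primary granule list, 3 (16.7%) were higher and 5 (27.8%) lower, against 7.86% and 8.57% of all genes, with a median of -0.44. Of the higher ones, CEBPE encodes a transcription factor and not a granule protein, and RETN passed the filter on low counts only through OCI-AML3. ELANE, neutrophil elastase, had 11.4, 12.2 and 26.2 CPM in OCI-AML3, against 554, 573 and 588 CPM in MOLM-14 and 163, 241 and 312 CPM in MV4-11. The difference was -4.499 (SE 0.24, adjusted p = 3.38e-08). PRTN3, proteinase 3, had 32.4, 24.4 and 59.4 CPM in OCI-AML3, against 350.2, 305 and 343 CPM in MOLM-14 and 311, 431 and 594 CPM in MV4-11. Its difference was -3.38 (SE 0.23, adjusted p = 4.55e-07). CST7, an inhibitor of cysteine proteases, had a difference of -2.98 (SE 0.37). MPO, myeloperoxidase, did not pass the rule: it had 6.12, 6.2 and 9.48 CPM in OCI-AML3, against 63.4, 30.8 and 67.3 CPM in MOLM-14 and 7.2, 11.2 and 15 CPM in MV4-11, where OCI-AML3 and MV4-11 overlapped. On the high side were RETN, resistin, with 10.5, 11.4 and 7.69 CPM in OCI-AML3, against 0, 0 and 0.0344 CPM in MOLM-14 and 0, 0.216 and 0.319 CPM in MV4-11, and CEBPE, the factor that drives secondary granule genes, with 1.75, 9.43 and 17.4 CPM in OCI-AML3, against 0.222, 0.218 and 0.0344 CPM in MOLM-14 and 0.934, 0.896 and 1.49 CPM in MV4-11. LYZ, lysozyme, lay between the other lines, with 364, 338 and 620.5 CPM in OCI-AML3, against 205, 160.0 and 221 CPM in MOLM-14 and 1495, 1629 and 2181 CPM in MV4-11, and was not called.

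Of 27 monocyte and macrophage genes tested, 6 (22.2%) were higher and 1 (3.7%) lower, against 7.86% and 8.57% of all genes, with a median of 0.44. CD14 passed the filter on low counts only through OCI-AML3. The summed level of the list was 716 to 979 CPM in OCI-AML3, against 365 to 375 CPM in MOLM-14 and 946 to 1104 CPM in MV4-11, so OCI-AML3 stood above MOLM-14 and overlapped MV4-11. Beside CYBB, CCR1, a chemokine receptor, had 70.9, 107 and 86.8 CPM in OCI-AML3, against 12.6, 11.5 and 10.1 CPM in MOLM-14 and 43.9, 32.5 and 28.5 CPM in MV4-11. It differed by 2.19 (SE 0.17, adjusted p = 4.88e-07). FCGR1A, a receptor for IgG, had a difference of 1.79 (SE 0.16), although 46.6% of its windows are shared with other genes. S100A9, a subunit of calprotectin, had a difference of 1.83 (SE 0.23). CD14, the co-receptor for lipopolysaccharide, was at a low level, with 5.25, 6.84 and 1.7 CPM in OCI-AML3, against 0.488, 0 and 0.516 CPM in MOLM-14 and 0, 0 and 0.106 CPM in MV4-11 (adjusted p = 0.00056), and its call was lost in 4 of the 9 fits without a single library.

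Few markers of other cell types were expressed highly enough to be tested. The numbers called stand against 7.86% higher and 8.57% lower of all genes. Of the erythroid and megakaryocyte list, 7 of 28 genes were tested, with CA2 higher and NFE2 and EPOR lower, and 8 genes had no count in any of the 9 libraries. CA1, the carbonic anhydrase typical of red cells, had at most 0.124 CPM in any library. CA2 made up most of the summed level of that list, 539 to 685 CPM in OCI-AML3, against 55.5 to 65.5 CPM in MOLM-14 and 33.9 to 54.5 CPM in MV4-11. NFE2, a factor of megakaryocytes and red cells, had 1.75, 3.91 and 5.32 CPM in OCI-AML3, against 24.5, 20.3 and 27.7 CPM in MOLM-14 and 7.87, 12.9 and 15.3 CPM in MV4-11. The difference was -2.09 (SE 0.26, adjusted p = 4.14e-05). Of 5 tested genes of eosinophils, basophils and mast cells, GATA2 alone was called, higher, with 35.9, 89.2 and 22.7 CPM in OCI-AML3, against 10.6, 10.5 and 11.8 CPM in MOLM-14 and 6.4, 5 and 5.95 CPM in MV4-11. Lymphoid genes had 0 higher and 1 lower of 15 tested, the lower one being CD4, a co-receptor also present on monocytes, with 36.8, 46.8 and 56.2 CPM in OCI-AML3, against 178, 188 and 168 CPM in MOLM-14 and 266, 267 and 242 CPM in MV4-11. The dendritic cell list had 1 (10%) higher and 3 (30%) lower of 10 tested, against 7.86% and 8.57% of all genes. CLEC9A was higher, with 7, 5.03 and 7.79 CPM in OCI-AML3 and at most 0.106 CPM elsewhere. It passed the filter on low counts only through OCI-AML3, so its call is not read as a result about the list. IRF8, with a difference of -1.17 (SE 0.20), IL3RA, with -1.47 (SE 0.20), and FLT3 were lower. Of the epithelial and stromal list, 4 genes were tested and 3 (75%) were lower, against 8.57% of all genes. KRT18 passed the filter on low counts only through the other lines, so that number is not read as a result about the list. KRT18, a keratin, had no count in the 3 OCI-AML3 libraries, 43.7, 42.6 and 49.8 CPM in MOLM-14 and 13.1, 9.67 and 10.5 CPM in MV4-11. With 3 counts allowed over the OCI-AML3 group, it was at least 802-fold below the mean of the other 6 libraries. The bound against MV4-11 alone is smaller. KRT8, its pairing partner, had a difference of -3.18 (SE 0.43) and PECAM1, an adhesion molecule of endothelium and leukocytes, -1.51 (SE 0.18).

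HOX genes encode homeobox factors of blood stem cells and are known to be active in both genetic classes. Of the 11 HOXA genes, 10 were tested, none was higher by the rule and 1 was lower. HOXA9 did not differ detectably, with 43.8, 36 and 31.7 CPM in OCI-AML3, against 34.3, 37.3 and 36.5 CPM in MOLM-14 and 43.5, 31.2 and 30.6 CPM in MV4-11 and a difference of 0.04 (SE 0.16), 95% confidence interval -0.29 to 0.38. HOXA10 had 25.4, 31.1 and 31.4 CPM in OCI-AML3, against 58.4, 61 and 57 CPM in MOLM-14 and 41.8, 42 and 36.5 CPM in MV4-11, below both other lines in every library, but passed only against MOLM-14 (adjusted p = 0.000488) and not against MV4-11 (adjusted p = 0.0588). The genes from HOXA3 to HOXA7 differed between the other lines themselves. HOXA5 had 11.4, 6.3 and 7.41 CPM in OCI-AML3, against 5.37, 2.84 and 4.02 CPM in MOLM-14 and 0.267, 0.0618 and 0.212 CPM in MV4-11, HOXA6 had 0.875, 4 and 2.77 CPM in OCI-AML3, against 6.12, 4.59 and 5.78 CPM in MOLM-14 and 0, 0.0309 and 0 CPM in MV4-11, and HOXA7 had 10.5, 3.86 and 5.07 CPM in OCI-AML3, against 8.96, 7.87 and 10.2 CPM in MOLM-14 and 0.133, 0.124 and 0.319 CPM in MV4-11. OCI-AML3 was above MOLM-14 in HOXA5, below it in HOXA6 and overlapped it in HOXA7, while MV4-11 was near 0 in all 3 genes. None of them passed the rule. At lower levels HOXA3 and HOXA4 overlapped between OCI-AML3 and MOLM-14, with HOXA3 at 2.62, 1.71 and 0.897 CPM in OCI-AML3, against 1.82, 2.08 and 2.06 CPM in MOLM-14 and 0, 0.0309 and 0 CPM in MV4-11 and HOXA4 at 0 to 0.733 CPM in OCI-AML3, against 0.241 to 1.29 CPM in MOLM-14 and 0 to 0.124 CPM in MV4-11.

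At the ends of the cluster, HOXA13 was high in MOLM-14 alone, with 0.875, 0.0488 and 0.157 CPM in OCI-AML3, against 44.6, 55 and 41.1 CPM in MOLM-14 and 0, 1.02 and 0.956 CPM in MV4-11, and it was called lower with OCI-AML3 and MV4-11 overlapping, a call lost in 5 of the 9 fits without a single library. HOXA11 had 7.88, 14.9 and 17.7 CPM in OCI-AML3, against 24.4, 24.5 and 24.6 CPM in MOLM-14 and 4, 6.18 and 5.42 CPM in MV4-11, between the other lines. HOXA2, with at most 0.328 CPM in any library, was not tested. The summed HOXA level was 99.2 to 103 CPM in OCI-AML3, against 187 to 201 CPM in MOLM-14 and 75.3 to 90.6 CPM in MV4-11.

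HOXB genes were near 0 in OCI-AML3 and also low in MOLM-14. Their summed level over 10 genes was 0 to 0.391 CPM in OCI-AML3, against 0.722 to 1.64 CPM in MOLM-14 and 4.36 to 8.87 CPM in MV4-11, without overlap between OCI-AML3 and the others. In OCI-AML3 pioglitazone 3 counts correspond to 2.625 CPM, so a 0 there cannot be told apart from the MOLM-14 level. Only HOXB4 was tested: it had no count in OCI-AML3, 0.133, 0.546 and 0.275 CPM in MOLM-14 and 4.4, 5.28 and 2.12 CPM in MV4-11 (adjusted p = 0.000616). With 3 counts allowed over the OCI-AML3 group, 0.0352 CPM, it was at least 60.4-fold below the mean of the other 6 libraries. The MOLM-14 mean was 0.318 CPM and the MV4-11 mean 3.94 CPM, so the bound against MOLM-14 alone is smaller. HOXB3 had no count in OCI-AML3, 0.266, 0.328 and 0.206 CPM in MOLM-14 and 0.267, 1.27 and 1.17 CPM in MV4-11. HOXB9 was detected in MOLM-14 alone, at 0.206 to 0.656 CPM, and HOXB6 in MV4-11 alone, at up to 0.834 CPM. HOXB7 reached 0.0472 CPM in OCI-AML3 and 0.865 CPM in MV4-11, HOXB13 0.342 CPM in OCI-AML3 and 0.8 CPM in MV4-11, HOXB2 0.0488 CPM and HOXB8 0.0157 CPM in OCI-AML3. HOXB1 and HOXB5 had no count in any of the 9 libraries.

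Of the cofactors that bind DNA with HOX proteins, 9 were tested and 1 was called in each direction (11.1% each), near the shares of all genes, 7.86% higher and 8.57% lower. PBX3 was higher, with 98.9, 111 and 92.8 CPM in OCI-AML3, against 58.5, 60 and 68.9 CPM in MOLM-14 and 47.2, 49.2 and 42.9 CPM in MV4-11. Its difference was 0.90 (SE 0.13, adjusted p = 0.00015). MEIS1 was lower, with 44.6, 28.4 and 31.9 CPM in OCI-AML3, against 52.1, 52.6 and 44.5 CPM in MOLM-14 and 63, 68.9 and 68.7 CPM in MV4-11, a difference of -0.78 (SE 0.16, adjusted p = 0.00198), although the OCI-AML3 pioglitazone library overlapped MOLM-14. The calls were lost in fits without single libraries for PBX3 (without MOLM-14 darglitazone, log2 difference then 0.85) and MEIS1 (without any of 5 of the 9 libraries, log2 difference then -0.82 to -0.62).

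Genes known as direct targets of KMT2A fusions had 2 (8.7%) higher and 6 (26.1%) lower of 23 tested and a median of -0.55. The shares over all genes were 7.86% and 8.57%. On the low side, besides IGF2BP2, were LAMP5, a lysosome-associated membrane protein, with 19.2, 15.4 and 32.8 CPM in OCI-AML3, against 89, 88.8 and 92.3 CPM in MOLM-14 and 407, 389.7 and 395 CPM in MV4-11 and a difference of -3.08 (SE 0.21, adjusted p = 1.99e-07), and CPEB2, a regulator of translation, with -2.47 (SE 0.32). SOX4, a factor of progenitor cells, had 29.8, 41.2 and 34.2 CPM in OCI-AML3, against 71.9, 69.5 and 66.3 CPM in MOLM-14 and 162, 155 and 187 CPM in MV4-11. It differed by -1.60 (SE 0.16, adjusted p = 5e-06). MYB, a factor that keeps progenitors proliferating, had a difference of -0.84 (SE 0.14). On the opposite side, ZC3H12C, an RNase of the regnase family, had 45.5, 38.3 and 21.2 CPM in OCI-AML3, against 11.3, 12.7 and 13.7 CPM in MOLM-14 and 1.07, 0.402 and 1.06 CPM in MV4-11, and MEF2C, a factor of myeloid and lymphoid progenitors, had 349, 396 and 326 CPM in OCI-AML3, against 166, 169 and 161 CPM in MOLM-14 and 116, 115 and 97.9 CPM in MV4-11. The difference was 1.41 (SE 0.12, adjusted p = 1.46e-06). When the other lines were fitted as 1 group, 1 target was higher and 5 were lower, and by limma-voom 6 were higher.

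KMT2A itself lay between the other lines, with 104, 91.7 and 74.6 CPM in OCI-AML3, against 58.2, 57.5 and 61.9 CPM in MOLM-14 and 121, 131 and 136 CPM in MV4-11 and a difference of 0.02 (SE 0.14, adjusted p = 0.935). Genes of the KMT2A complex and its fusion partners had 1 (5.56%) higher and 3 (16.7%) lower of 18 tested, against 7.86% and 8.57% of all genes. MLLT1, a partner that reads acetylated histones, had 43.8, 64.2 and 59.4 CPM in OCI-AML3, against 115, 112 and 118 CPM in MOLM-14 and 129.5, 118 and 126 CPM in MV4-11. Its difference was -1.08 (SE 0.15, adjusted p = 0.000104). ELL, an elongation factor, had -0.90 (SE 0.16), DPY30, a core subunit, -1.07 (SE 0.23), and CCNT1, the cyclin of P-TEFb, 0.64 (SE 0.13) on the higher side. Leaving out single libraries ended the calls of ELL (without MOLM-14 DMSO, MOLM-14 pioglitazone or OCI-AML3 DMSO, log2 difference then -0.90 to -0.84), DPY30 (without OCI-AML3 darglitazone, MV4-11 DMSO or MV4-11 pioglitazone, log2 difference then -1.13 to -0.86) and CCNT1 (without any of 5 of the 9 libraries, log2 difference then 0.57 to 0.67).

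NPM1, which encodes nucleophosmin, had 1946, 1345 and 1620 CPM in OCI-AML3, against 1199, 1170 and 1182 CPM in MOLM-14 and 690.5, 735 and 701 CPM in MV4-11. It differed by 0.83 (SE 0.12, adjusted p = 0.000161). All OCI-AML3 libraries stood above the other 6, yet the call was lost in 6 of the 9 fits without a single library, and 44.4% of the windows of its transcript are shared with other genes. Among 15 nucleolar genes, 2 were higher, NPM1 and DKC1, the pseudouridine synthase of H/ACA particles, with 0.57 (SE 0.13), and 2 were lower. Those shares were 13.3% each, against 7.86% higher and 8.57% lower of all genes. FBL, the methyltransferase of C/D particles, had 106, 149 and 156 CPM in OCI-AML3, against 239, 244 and 266 CPM in MOLM-14 and 211, 199 and 229 CPM in MV4-11, a difference of -0.75 (SE 0.14, adjusted p = 0.000987), and NPM2, a nucleophosmin of the oocyte, had a difference of -3.32 (SE 0.74) at a low level. The calls of DKC1 and NPM2 were lost in 8 and 5 of the 9 fits without a single library.

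Of 31 receptor tyrosine kinases listed, 19 were tested, with 1 (5.26%) higher and 6 (31.6%) lower, against 7.86% and 8.57% of all genes. PDGFRB passed the filter on low counts only through OCI-AML3, and FGFR3, EPHB6 and KIT only through the other lines. The number called is therefore not read as a result about the list. Its median was -1.32 and its summed level 391 to 412 CPM in OCI-AML3, against 1139 to 1158 CPM in MOLM-14 and 671 to 886 CPM in MV4-11. FLT3 had 150.5, 117 and 156 CPM in OCI-AML3, against 306, 314 and 272 CPM in MOLM-14 and 537, 415 and 332 CPM in MV4-11. The difference was -1.32 (SE 0.16, adjusted p = 3.73e-05). Each OCI-AML3 library lay below each of the other 6. EPHB4, an ephrin receptor, had 2.62, 0.928 and 0.488 CPM in OCI-AML3, against 66.9, 63.6 and 65.3 CPM in MOLM-14 and 6.14, 6.18 and 6.27 CPM in MV4-11. Its difference was -4.79 (SE 0.31, adjusted p = 1.22e-07). EPHB6, its relative without kinase activity, had 0, 0 and 0.0472 CPM in OCI-AML3, against 0.443, 0.328 and 0.722 CPM in MOLM-14 and 22.1, 27.5 and 22.5 CPM in MV4-11. FGFR3, a receptor for fibroblast growth factors, had 2 counts in OCI-AML3, 11.8, 13.3 and 16.2 CPM in MOLM-14 and 3.07, 2.07 and 3.08 CPM in MV4-11. KIT, the receptor for stem cell factor, was low in all lines, with 0, 0.244 and 0.0786 CPM in OCI-AML3, against 0.665, 0.546 and 1.27 CPM in MOLM-14 and 1.6, 4.08 and 6.16 CPM in MV4-11 (adjusted p = 0.00178). PDGFRB, a receptor for platelet-derived growth factors, was the 1 kinase called higher, with 2.62, 4.39 and 4.86 CPM in OCI-AML3, against 0.0887, 0.218 and 0.0344 CPM in MOLM-14 and 0.267, 0.432 and 0.744 CPM in MV4-11. When the other lines were fitted as 1 group, 2 kinases were lower. Without MOLM-14 DMSO or OCI-AML3 DMSO 4 were, and leaving out single libraries ended the calls of KIT (without MOLM-14 DMSO or OCI-AML3 DMSO, log2 difference then -3.82 to -2.84) and PDGFRB (without OCI-AML3 DMSO, log2 difference then 4.01).

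STAT5 acts downstream of FLT3 and of cytokine receptors, and its best known targets encode feedback inhibitors, survival kinases and D-type cyclins. Of 22 listed genes, all tested, 2 (9.09%) were higher and 5 (22.7%) lower, against 7.86% and 8.57% of all genes. The median difference was 0.20. The list also holds genes induced by ERK signalling, among them DUSP6, SPRED1, SPRY2, SPRY4, EGR1 and ETV5. Its counts and median therefore do not describe STAT5 alone. The promoter of CISH, a feedback inhibitor of cytokine receptors, is printed because CISH was the only called target, of those with an entry in the promoter table, that held STAT motifs in the window searched. It is the RefSeq sequence of the 250 bases before the start on the minus strand of chr3:50611775-50612024 (GRCh38.p14), with matches to TTCNNNGAA in capitals.
CISH: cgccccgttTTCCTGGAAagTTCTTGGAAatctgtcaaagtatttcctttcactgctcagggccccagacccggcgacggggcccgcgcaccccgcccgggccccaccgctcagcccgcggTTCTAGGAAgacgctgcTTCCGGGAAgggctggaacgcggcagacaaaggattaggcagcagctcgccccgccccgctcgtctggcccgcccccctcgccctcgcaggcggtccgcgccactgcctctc
The motif reads the same on both strands. The 4 matches began 241, 230, 129 and 112 bases before the start, and none overlapped. Of 35116 promoters of that length, 2306 (6.57%) held at least 1 match. Of the 17 genes of the STAT5 list whose promoters were searched, 4 did, CISH among the lower ones and LTB, EGR1 and BCL6 among those not called, each of these 3 with 1 match. A match describes letters and not binding.

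CISH had 0.875, 3.27 and 4.18 CPM in OCI-AML3, against 20.8, 15 and 25.3 CPM in MOLM-14 and 27.1, 18.8 and 21.2 CPM in MV4-11. It differed by -2.58 (SE 0.27, adjusted p = 9.45e-06). SOCS3, another feedback inhibitor, had 2.62, 1.03 and 1.35 CPM in OCI-AML3, against 4.88, 5.79 and 8.11 CPM in MOLM-14 and 49.5, 12.1 and 14.4 CPM in MV4-11. The difference was -3.01 (SE 0.46, adjusted p = 0.000436). PIM1, a survival kinase, had 9.62, 6.79 and 3.3 CPM in OCI-AML3, against 31.1, 26.2 and 36 CPM in MOLM-14 and 61.4, 58.3 and 65.4 CPM in MV4-11. Its difference was -3.03 (SE 0.29, adjusted p = 1.04e-05). OSM, the cytokine oncostatin M, had 2.62, 1.56 and 0.44 CPM in OCI-AML3, against 9.75, 7.98 and 5.71 CPM in MOLM-14 and 14, 7.6 and 9.03 CPM in MV4-11. It differed by -2.97 (SE 0.44, adjusted p = 0.000164). CCND2, cyclin D2, showed the largest difference of the list, with 4.38, 0.391 and 0.692 CPM in OCI-AML3, against 341, 326 and 331 CPM in MOLM-14 and 74.4, 78.5 and 71.3 CPM in MV4-11. The difference was -7.79 (SE 0.39, adjusted p = 8.24e-08). Of the 22 listed genes these 5 (22.7%) had all 3 OCI-AML3 libraries below the other 6, against 12.7% of all genes. Genes called lower seldom overlap, so this adds nothing to the calls. SOCS2, also a feedback inhibitor, did not follow: it had 66.5, 47.8 and 54.4 CPM in OCI-AML3, against 145, 139.9 and 146 CPM in MOLM-14 and 19.9, 20.4 and 29.4 CPM in MV4-11, between the other lines, and was named after its values had been seen. On the high side were ETV5, an ETS factor also induced by ERK signalling, with 65.6, 94.5 and 77 CPM in OCI-AML3, against 47, 41.4 and 44.6 CPM in MOLM-14 and 39.2, 29.2 and 24.1 CPM in MV4-11, and CCND3, cyclin D3, with 155, 357 and 308 CPM in OCI-AML3, against 155, 128 and 168 CPM in MOLM-14 and 122, 109.5 and 129.9 CPM in MV4-11 and a difference of 1.001 (SE 0.20, adjusted p = 0.00238), where OCI-AML3 pioglitazone overlapped MOLM-14. Leaving out single libraries ended the calls of SOCS3 (without OCI-AML3 DMSO or OCI-AML3 darglitazone, log2 difference then -3.02 to -2.95) and CCND3 (without any of 4 of the 9 libraries, log2 difference then 0.67 to 0.998).

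**Figure D3:**
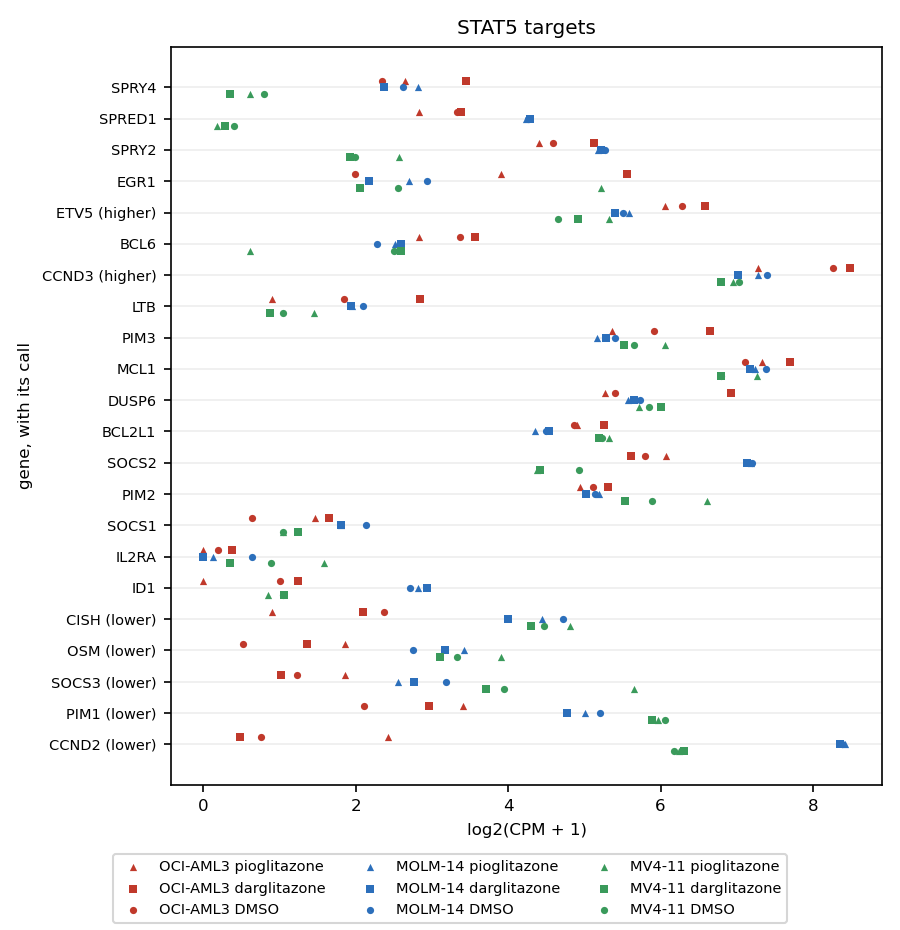
Each row is a gene of the STAT5 list, ordered by its difference, with log2(CPM + 1) on the x axis and 1 symbol per library, coloured by line. The red OCI-AML3 symbols lie to the left of the others in the 5 lowest rows, CISH to CCND2.

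CDKN1A, EDA2R, PHLDA3, GADD45A and SPATA18 were each called higher in OCI-AML3. CDKN1A, the inhibitor p21 that halts the cell cycle, had 297, 693 and 369.9 CPM in OCI-AML3, against 154, 146 and 160.2 CPM in MOLM-14 and 86.7, 49.1 and 62 CPM in MV4-11. Its difference was 2.15 (SE 0.27, adjusted p = 0.000342). EDA2R, a death receptor, had 31.5, 30.9 and 33.9 CPM in OCI-AML3, against 0.222, 0.218 and 0.206 CPM in MOLM-14 and 5.07, 7.11 and 6.8 CPM in MV4-11. The difference was 4.75 (SE 0.23, adjusted p = 1.19e-08). PHLDA3, an inhibitor of AKT, had a difference of 1.96 (SE 0.16) and GADD45A, a stress response protein, 2.60 (SE 0.28). SPATA18, a protein of mitochondrial quality control, had 3.5, 3.42 and 8.18 CPM in OCI-AML3, against 0 CPM in all 3 MOLM-14 libraries and 1.2, 1.02 and 1.06 CPM in MV4-11.

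CDKN2A, which encodes inhibitors of the cell cycle, was near 0 in MOLM-14 alone, with 18.4, 25.8 and 35.7 CPM in OCI-AML3, against 0.0887, 0 and 0.0344 CPM in MOLM-14 and 50.3, 43 and 46.5 CPM in MV4-11. It was not called, and was named after its values had been seen. A single library ended the call of SPATA18 (without OCI-AML3 DMSO or MV4-11 DMSO).

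In the BCL2 family, which sets the threshold for apoptosis, 3 genes (20%) were higher and 1 (6.67%) was lower of 15 tested. The shares over all genes were 7.86% and 8.57%. BBC3, which encodes PUMA, an activator of apoptosis, had 30.6, 47.3 and 32.2 CPM in OCI-AML3, against 9.18, 8.63 and 8.18 CPM in MOLM-14 and 10, 12.2 and 11.2 CPM in MV4-11. Its difference was 1.90 (SE 0.17, adjusted p = 2.69e-06). PMAIP1, which encodes NOXA, had 1.51 (SE 0.29), a call lost without OCI-AML3 darglitazone, MV4-11 DMSO or MV4-11 darglitazone. BCL2A1, a survival protein, had 10.5, 10.7 and 4.39 CPM in OCI-AML3, against 0.931, 0.656 and 0.86 CPM in MOLM-14 and 0, 0 and 0.212 CPM in MV4-11 (adjusted p = 3.76e-05). The lower gene was BIK, described above.

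Genes of G1/S and DNA replication had 10 (33.3%) higher and 3 (10%) lower of 30 tested, against 7.86% and 8.57% of all genes. Their median was 0.54, whereas none of 26 G2/M genes was called in either direction and the G2/M median was 0.03. CDKN1A and CCND3 were among the higher ones, as was TYMS, thymidylate synthase, with 57.8, 43.1 and 57 CPM in OCI-AML3, against 29.4, 27.8 and 40.9 CPM in MOLM-14 and 16.4, 18.9 and 31.2 CPM in MV4-11. CCND2 and CDKN1B, the inhibitor p27, were among the lower ones, and CDKN1B had 18.4, 23.6 and 23.3 CPM in OCI-AML3, against 54, 57 and 60 CPM in MOLM-14 and 67.2, 66.3 and 63.1 CPM in MV4-11. It differed by -1.46 (SE 0.15, adjusted p = 6.97e-06). The summed level of this list, 4472 to 6406 CPM in OCI-AML3, against 5014 to 5451 CPM in MOLM-14 and 4215 to 5109 CPM in MV4-11, overlapped between the lines, and leaving out MOLM-14 DMSO or MOLM-14 darglitazone brought the count of higher genes to 4, TYMS being among those lost. Among G2/M genes the smallest p belonged to TTK and AURKB, both mitotic kinases. AURKB had 55.1, 72.8 and 101 CPM in OCI-AML3, against 56.3, 56.3 and 61.3 CPM in MOLM-14 and 43.1, 50.7 and 70.8 CPM in MV4-11 and TTK had 48.1, 33.2 and 107 CPM in OCI-AML3, against 40, 33.3 and 38.6 CPM in MOLM-14 and 19.6, 18.8 and 22.6 CPM in MV4-11.

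Of 29 listed inflammatory genes controlled by NF-kB, 20 were tested, with 7 (35%) called higher and 0 lower and a median of 1.09. The shares over all genes were 7.86% higher and 8.57% lower. CCL2 and CXCL1 passed the filter on low counts only through OCI-AML3, so the number called is not read as a result about the list. Of the 20 tested members, 10 had all 3 OCI-AML3 libraries above the other 6, as did 11.9% of all genes. CCL2 and CXCL1 are among the 10, so this number is not read as a result about the list either. CXCL8, the neutrophil chemokine interleukin 8, had 213, 472 and 92.4 CPM in OCI-AML3, against 0.222, 0.656 and 0.378 CPM in MOLM-14 and 12.7, 2.9 and 7.01 CPM in MV4-11. The difference was 7.10 (SE 0.78, adjusted p = 0.00251). CCL2, a monocyte chemokine, had 10.5, 51.6 and 7.61 CPM in OCI-AML3, against 0, 0 and 0.0688 CPM in MOLM-14 and 0.667, 0.309 and 1.17 CPM in MV4-11, and CXCL1, a neutrophil chemokine, had 3.5, 2.39 and 1.43 CPM in OCI-AML3, against 0 CPM in all 3 MOLM-14 libraries and 0, 0 and 0.106 CPM in MV4-11. NFKBIZ, a nuclear cofactor of NF-kB, had a difference of 2.27 (SE 0.27) and PTGS2, cyclooxygenase 2, 2.56 (SE 0.48). IL1B, interleukin 1β, had 6.12, 46.9 and 4.99 CPM in OCI-AML3, against 0.798, 0.328 and 0.997 CPM in MOLM-14 and 3.47, 2.63 and 2.34 CPM in MV4-11, above all other libraries, and was not called because it failed against MV4-11 (adjusted p = 0.0616). In CXCL8, CCL2 and IL1B the darglitazone library was the highest of OCI-AML3, and without it 5 genes of the list were called higher, as against 3 with all libraries thinned to equal depth. Leaving out single libraries ended the calls of CXCL8 (without MV4-11 DMSO, log2 difference then 7.34) and PTGS2 (without MOLM-14 pioglitazone, MOLM-14 darglitazone or OCI-AML3 darglitazone, log2 difference then 2.08 to 2.48).

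**Figure D4:**
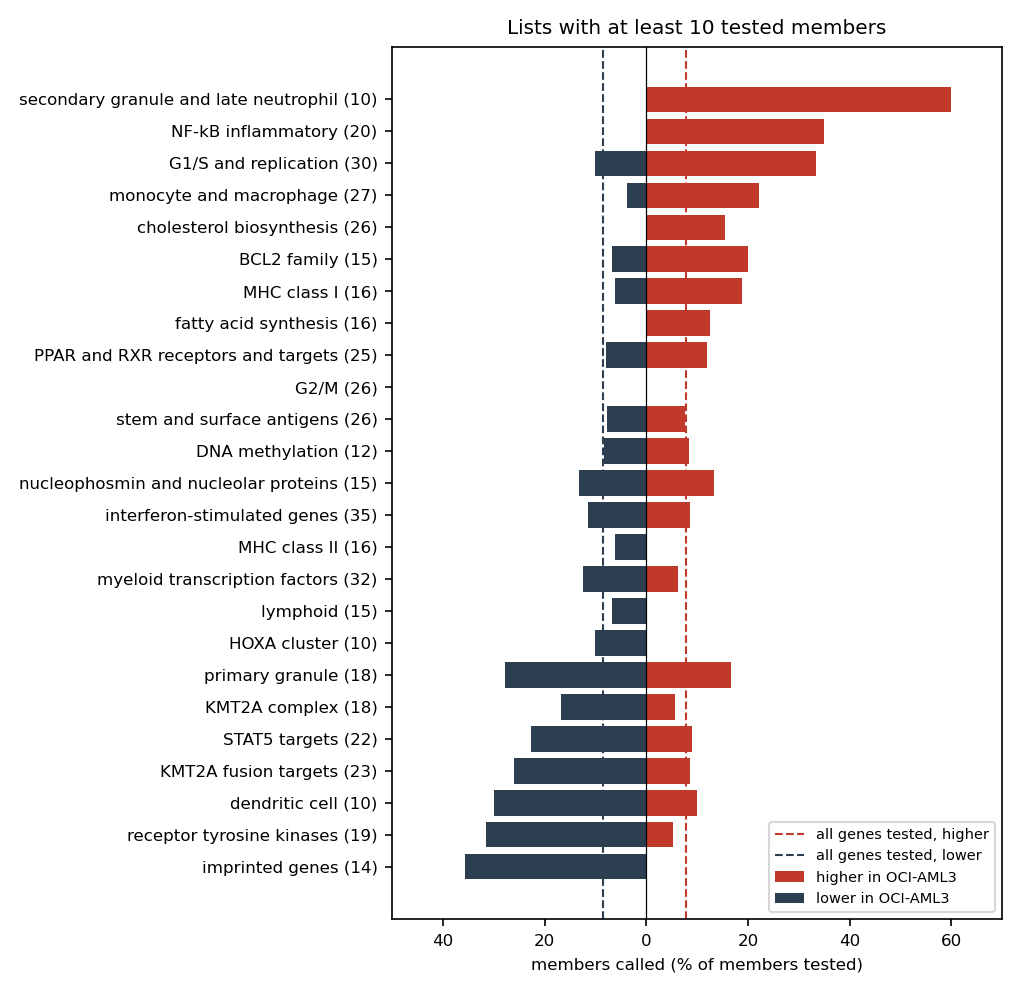
Bars give the percentage of tested members called higher (right of 0) and lower (left of 0) in OCI-AML3 for lists with at least 10 tested members, the number tested standing after its name. Dashed lines give the same over all genes tested, 7.86% higher and 8.57% lower. The bars of late neutrophil, NF-kB, imprinted and receptor tyrosine kinase genes rest on part of their lists, 10, 20, 14 and 19 tested members. These include genes that passed the filter only through the side where they are high.

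MHC class I molecules present peptides from inside the cell, and class II molecules those taken up. Among MHC class I genes, 3 (18.8%) were higher and 1 (6.25%) was lower of 16 tested, against 7.86% and 8.57% of all genes. Among the higher ones, HLA-C had a difference of 0.87 (SE 0.14) and HLA-E of 0.87 (SE 0.14). The lower gene, ERAP2, which trims peptides, had 1.75, 2.98 and 4.37 CPM in OCI-AML3, against 42.7, 40.8 and 44.7 CPM in MOLM-14 and 5.34, 8.46 and 5.31 CPM in MV4-11. HLA genes are highly variable between people and share sequence with their relatives, and the part that read assignment has in these differences was not tested. The class II regulator CIITA was lower, with 1.75, 2.15 and 1.18 CPM in OCI-AML3, against 4.52, 3.71 and 4.3 CPM in MOLM-14 and 8, 11.9 and 9.14 CPM in MV4-11. Its difference was -2.005 (SE 0.37, adjusted p = 0.000978). It was the only call among 16 class II genes, of which 14 had a negative difference. HLA-DRA, named after its values had been seen, had 15.8, 0.977 and 0.897 CPM in OCI-AML3, against 6.16, 5.13 and 4.71 CPM in MOLM-14 and 29.6, 33.1 and 27.5 CPM in MV4-11: the OCI-AML3 pioglitazone library was far above the other OCI-AML3 libraries, and the part of its higher level of KG-1a genes in this was not tested. Without that library 5 class II genes were called lower, and 6 without MV4-11 DMSO as well. Single libraries, when left out, ended the calls of CIITA (without MOLM-14 DMSO, MOLM-14 pioglitazone or OCI-AML3 DMSO, log2 difference then -1.98 to -1.70), HLA-E (without OCI-AML3 darglitazone, MV4-11 DMSO or MV4-11 darglitazone, log2 difference then 0.71 to 0.83) and ERAP2 (without OCI-AML3 darglitazone or MV4-11 darglitazone, log2 difference then -2.09 to -1.998).

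Surface antigens used to define or target leukaemic cells had 2 higher and 2 lower of 26 tested (7.69% each). These were near the shares of all genes, 7.86% and 8.57%. CD38, an ectoenzyme, had 28.9, 49.8 and 76.6 CPM in OCI-AML3, against 24.2, 29.9 and 23.3 CPM in MOLM-14 and 0.667, 1.27 and 2.12 CPM in MV4-11. It differed by 3.11 (SE 0.23, adjusted p = 6.74e-07). CLEC12A, an inhibitory lectin, had 19.2, 30.4 and 38 CPM in OCI-AML3, against 0.931, 0.328 and 0.103 CPM in MOLM-14 and 8.4, 12.1 and 14.1 CPM in MV4-11. The difference was 3.70 (SE 0.43, adjusted p = 0.000143). IL3RA, the receptor subunit for interleukin 3, had 10.5, 11.2 and 13.4 CPM in OCI-AML3, against 30.2, 28.1 and 34.5 CPM in MOLM-14 and 53, 32.1 and 32 CPM in MV4-11, and KIT was the other lower gene. CD33, a sialic acid receptor, had 34.1, 81.4 and 83.2 CPM in OCI-AML3, against 53.2, 60.6 and 51.7 CPM in MOLM-14 and 152, 172 and 146 CPM in MV4-11 and was not called. CD34, the stem cell marker, was highest in OCI-AML3 pioglitazone, with 7.88, 0.195 and 0.0786 CPM in OCI-AML3, against 0.576, 1.42 and 0.275 CPM in MOLM-14 and 1.2, 3.52 and 1.27 CPM in MV4-11. Of 9 tested receptors of the LILR group, LILRB1 was higher, with 12.2, 28.5 and 25.3 CPM in OCI-AML3, against 2.44, 2.4 and 3.06 CPM in MOLM-14 and 9.07, 15 and 13.5 CPM in MV4-11. LAIR1, an inhibitory collagen receptor, was lower, with 128, 145 and 139 CPM in OCI-AML3, against 267, 284 and 289 CPM in MOLM-14 and 275, 305 and 252 CPM in MV4-11. LAIR2, its soluble relative, was also lower, with 0.875, 0.342 and 0.346 CPM in OCI-AML3, against 1.29, 2.19 and 1.41 CPM in MOLM-14 and 2.8, 2.94 and 1.38 CPM in MV4-11. The shares called in that group were 11.1% higher and 22.2% lower, against 7.86% and 8.57% of all genes. Leaving out single libraries ended the calls of CD38 (without MOLM-14 DMSO or OCI-AML3 DMSO, log2 difference then 2.81 to 2.87), CLEC12A (without any of 6 of the 9 libraries, log2 difference then 3.38 to 3.83), KIT (without MOLM-14 DMSO or OCI-AML3 DMSO, log2 difference then -3.82 to -2.84), LILRB1 (without any of 5 of the 9 libraries, log2 difference then 1.78 to 1.95) and LAIR2 (without any of 5 of the 9 libraries, log2 difference then -2.46 to -1.84).

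Interferon-stimulated genes had 3 (8.57%) higher and 4 (11.4%) lower of 35 tested and a median of -0.05. These were near the shares of all genes, 7.86% higher and 8.57% lower. IFI44 had 7, 5.42 and 5.24 CPM in OCI-AML3, against 0.887, 0.546 and 0.894 CPM in MOLM-14 and 0, 0.0309 and 0 CPM in MV4-11 and IFI6, a protein that limits apoptosis, had a difference of 1.94 (SE 0.34). GBP2, a guanylate-binding protein, had 0, 1.27 and 0.771 CPM in OCI-AML3, against 17.1, 17.1 and 14.4 CPM in MOLM-14 and 19.6, 8.71 and 7.44 CPM in MV4-11. Its difference was -3.67 (SE 0.39, adjusted p = 1.06e-05). BST2, the restriction factor tetherin, had -2.16 (SE 0.18) and STAT2, the interferon signal transducer, -1.07 (SE 0.15). The count of lower genes was 2 in 6 of the 9 fits without a single library and 10 by limma-voom. STAT2 lost its call in each of those 9 fits, and IFI6 without MV4-11 DMSO or MV4-11 darglitazone.

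PPAR receptors act as pairs with RXR receptors, and the drugs given here are agonists of 1 of the PPARs, PPARγ. The genes called on this list did not include PPARG, which encodes it and whose level is not given here. Among 25 tested receptors and targets, 3 (12%) were higher and 2 (8%) lower, against 7.86% and 8.57% of all genes. RXRA, the main partner of PPARs in myeloid cells, had 20.1, 29.2 and 26.6 CPM in OCI-AML3, against 232, 204 and 252 CPM in MOLM-14 and 318, 277 and 295 CPM in MV4-11, a difference of -3.31 (SE 0.17, adjusted p = 2.16e-08), far below the other lines in every library. PPARA had 12.2, 8.79 and 9.42 CPM in OCI-AML3, against 13.4, 16.5 and 16.5 CPM in MOLM-14 and 19.2, 25.9 and 19 CPM in MV4-11. It differed by -0.94 (SE 0.21, adjusted p = 0.00394). Besides LPL, the higher targets were FABP5, a fatty acid carrier, with 0.97 (SE 0.21), and PLIN2, a coat protein of lipid droplets, with 1.17 (SE 0.25). HMOX1, haem oxygenase, had 0.875, 3.52 and 0.676 CPM in OCI-AML3, against 1.77, 2.19 and 0.722 CPM in MOLM-14 and 21.6, 20.4 and 2.23 CPM in MV4-11 and was not called. The calls of PPARA, FABP5 and PLIN2 were lost in 8, 4 and 4 of the 9 fits without a single library, and that of LPL without MV4-11 pioglitazone.

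Of 26 cholesterol synthesis genes, 4 (15.4%) were higher and none lower, against 7.86% and 8.57% of all genes, with a median of 0.06. STARD4, a sterol carrier, had 33.2, 28.4 and 36.7 CPM in OCI-AML3, against 15.4, 8.85 and 8.7 CPM in MOLM-14 and 14.9, 6.86 and 6.06 CPM in MV4-11. The difference was 1.85 (SE 0.21, adjusted p = 1.84e-05). GGPS1, which makes geranylgeranyl diphosphate, had 1.36 (SE 0.17), LBR, a sterol reductase of the nuclear envelope, 1.20 (SE 0.15), and HMGCS1, an early enzyme of the pathway, 1.07 (SE 0.21). Of 16 fatty acid synthesis genes, 2 were higher: ELOVL6, an elongase, had 58.6, 31.7 and 49.1 CPM in OCI-AML3, against 2, 2.08 and 1.44 CPM in MOLM-14 and 1.73, 1.64 and 1.7 CPM in MV4-11, a difference of 4.69 (SE 0.22, adjusted p = 1.11e-08), and ME1, malic enzyme, had 2.67 (SE 0.34). The 2 higher ones were 12.5% of the 16, against 7.86% of all genes, and none was lower. SCD, the Δ9 desaturase, had 759.5, 379 and 346 CPM in OCI-AML3, against 1138, 968 and 888 CPM in MOLM-14 and 863, 358 and 331 CPM in MV4-11 and was not called. Leaving out single libraries ended the calls of LBR (without MOLM-14 DMSO, MOLM-14 darglitazone or OCI-AML3 DMSO, log2 difference then 0.93 to 1.21), HMGCS1 (without OCI-AML3 pioglitazone, OCI-AML3 darglitazone or MV4-11 darglitazone, log2 difference then 0.88 to 1.03) and ME1 (without MOLM-14 pioglitazone, MOLM-14 darglitazone or OCI-AML3 pioglitazone, log2 difference then 2.27 to 2.63).

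Of 32 myeloid transcription factors tested, 2 were higher, CEBPE and GATA2, and 4 lower, MYB, IRF8, GFI1 with -0.91 (SE 0.14), and LYL1, a partner of TAL1, with -0.73 (SE 0.15), a gene named after its values had been seen. These shares were 6.25% and 12.5%, against 7.86% higher and 8.57% lower of all genes. GFI1, a repressor that directs granulocyte fate, had 89.2, 127 and 124 CPM in OCI-AML3, against 169, 161 and 188 CPM in MOLM-14 and 259.6, 264 and 264 CPM in MV4-11. Among 12 tested genes of DNA methylation, TET2, which oxidises methylcytosine, was higher, with 58.6, 63.7 and 67.8 CPM in OCI-AML3, against 32.6, 32.8 and 33.8 CPM in MOLM-14 and 26.8, 39.7 and 39 CPM in MV4-11, and IDH1, which makes its cofactor α-ketoglutarate, was lower, with 38.5, 39.9 and 50.1 CPM in OCI-AML3, against 78.3, 65.2 and 64.2 CPM in MOLM-14 and 109.8, 100.4 and 88.8 CPM in MV4-11. Those shares were 8.33% each, near the 7.86% higher and 8.57% lower of all genes. DNMT3A, a methyltransferase, had 27.1, 20.3 and 22.7 CPM in OCI-AML3, against 18.5, 18.9 and 18.2 CPM in MOLM-14 and 30.9, 16 and 24.3 CPM in MV4-11 and was not called. The calls lost without single libraries were those of GFI1 (without MOLM-14 DMSO or MOLM-14 pioglitazone, log2 difference then -0.89 to -0.88), CEBPE (without OCI-AML3 DMSO, log2 difference then 3.67), IRF8 (without OCI-AML3 darglitazone, log2 difference then -1.04) and IDH1 (without MOLM-14 pioglitazone or MOLM-14 darglitazone, log2 difference then -0.94 to -0.89). Of 7 tested carbonic anhydrases, CA12, a membrane form, was higher beside CA2, with 4.38, 6.15 and 3.85 CPM in OCI-AML3, against 0.177, 0.109 and 0.0344 CPM in MOLM-14 and 0, 0.0618 and 0 CPM in MV4-11. These 2 were 28.6% of the tested carbonic anhydrases, against 7.86% of all genes, and CA12 passed the filter on low counts only through OCI-AML3. Of 6 tested genes of the acute phase and lipocalin list, ORM1 and ORM2 (33.3%) were called higher. In that list 10 of the 24 genes had no count in any of the 9 libraries.

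Of 23 imprinted genes, expressed from 1 parental copy, 14 were tested, none was higher and 5 were lower. MEST, PHLDA2 and CDKN1C passed the filter on low counts only through the other lines, so the number called is not read as a result about the list. MEST, a hydrolase of mesoderm, with 3 counts in OCI-AML3, had 1.75, 0.0488 and 0 CPM in OCI-AML3, against 8.69, 5.13 and 5.98 CPM in MOLM-14 and 15.2, 14.5 and 14.4 CPM in MV4-11 (adjusted p = 8.06e-05). PHLDA2, a growth regulator, had 0, 0.0977 and 0.0315 CPM in OCI-AML3, against 3.19, 3.39 and 4.95 CPM in MOLM-14 and 0.8, 1.02 and 1.17 CPM in MV4-11. It differed by -5.23 (SE 0.78, adjusted p = 0.000175). CDKN1C, the inhibitor p57, had 1 count in OCI-AML3, 0.177, 0.109 and 0.378 CPM in MOLM-14 and 2.54, 1.67 and 0.531 CPM in MV4-11, at a level where its call was lost in 6 of the 9 fits without a single library. SNRPN had a difference of -0.75 (SE 0.15) and SNURF, whose transcript overlaps SNRPN (93.8% of windows shared), -1.74 (SE 0.37). Without MOLM-14 darglitazone or OCI-AML3 darglitazone 2 members were called lower, as when the other lines were fitted as 1 group. Calls lost without single libraries were also those of SNRPN (without any of 5 of the 9 libraries, log2 difference then -0.77 to -0.65) and SNURF (without MOLM-14 darglitazone or OCI-AML3 darglitazone, log2 difference then -1.72 to -1.46). Of 22 cancer-testis genes, 3 were tested. MAGEB2, called higher, passed the filter only through OCI-AML3, with 0.875, 1.76 and 1.51 CPM in OCI-AML3, against 0, 0 and 0.0344 CPM in MOLM-14 and 0 CPM in all 3 MV4-11 libraries. XAGE1B, also called higher, had 46.4, 6.5 and 8.2 CPM in OCI-AML3, against 3.59, 3.06 and 2.48 CPM in MOLM-14 and 0, 0.432 and 0 CPM in MV4-11, and all its windows are shared with another copy. Both calls were lost without single libraries, those of MAGEB2 (without OCI-AML3 DMSO) and XAGE1B (without any of 5 of the 9 libraries, log2 difference then 3.19 to 4.41).

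Genes of chromosome 19 were lower in OCI-AML3 more often than genes of other chromosomes. Of its 1026 tested protein-coding genes, 276 (26.9%) were called lower and 33 (3.22%) higher, against 9.81% lower and 9.15% higher of all 12911 protein-coding genes, and their median difference was -0.58. The shift held against each line, with medians of -0.44 against MOLM-14 and -0.75 against MV4-11. The share of G and C bases moved with the difference as well. In the quintile of lowest GC content, 13.2% were called higher and 3.99% lower, and in the quintile of highest, 4.42% and 18.3%. Over 12911 genes, Spearman's correlation of GC content with a library's deviation from the mean was -0.382, 0.019 and -0.307 in OCI-AML3, against -0.068, -0.022 and 0.035 in MOLM-14 and 0.283, 0.251 and 0.322 in MV4-11, given as a description. Within the quintile of highest GC content, 33.7% of chromosome 19 genes were lower (median -0.74), against 14.4% of genes of other chromosomes (median -0.25). With the relation to GC content taken out of each library, an alternative chosen after it had been seen, 1113 of the 1267 higher and 1240 of the 1382 lower genes remained called. Of the chromosome 19 genes, the 224 ZNF genes had a median of -0.26 and the 802 others -0.64. Among the genes named above, ELANE, PRTN3, DOCK6, GAMT, EPOR, MLLT1, ELL, FBL, LAIR1, LAIR2 and BST2, all lower, lie on that chromosome, as do CEACAM6, RETN, BBC3 and LILRB1, all higher.

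**Figure D5:**
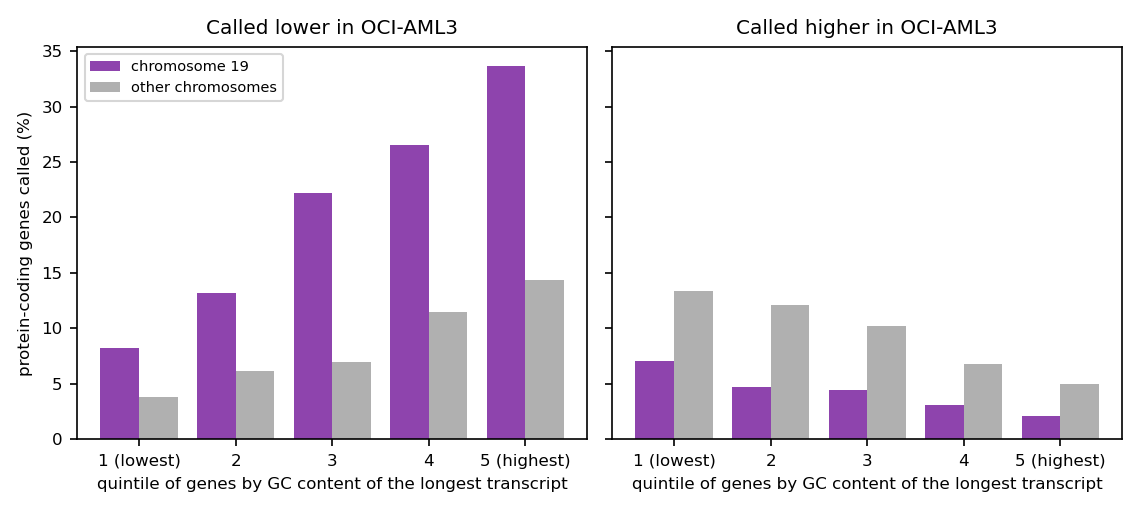
Bars give the percentage of tested protein-coding genes called lower (left) and higher (right) in OCI-AML3, by quintiles of GC content of the longest transcript, for chromosome 19 and for all other chromosomes. In every quintile the chromosome 19 bar is taller on the left and shorter on the right, and the left bars rise with GC content.

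Whether OCI-AML3 responded to the drugs differently from the other lines was tested with a further term, the response of OCI-AML3 minus the mean response of MOLM-14 and MV4-11. Of 16120 genes, 6 (0.0372%) had a higher response in OCI-AML3 and 0 a lower one by edgeR's quasi-likelihood test, against 438 (2.72%) and 731 (4.53%) at an unadjusted p under 0.05. DESeq2 called 66 higher and 30 lower, and limma-voom 23 and 7. Without OCI-AML3 pioglitazone the counts were 218 and 236, without OCI-AML3 darglitazone 116 and 465, and without MV4-11 DMSO 3 and 0. AHNAK, a giant scaffold protein of the cell membrane, had 595 and 669 CPM with pioglitazone and darglitazone in OCI-AML3 against 139.6 CPM with DMSO, while the other 6 libraries ranged from 492 to 886 CPM. The difference in response was 2.27 (SE 0.26, adjusted p = 0.0118). KLF15, a factor of glucose and lipid metabolism, had 42.9 and 50.1 CPM with the drugs in OCI-AML3 against 8.59 CPM with DMSO. In MOLM-14 it had 20.9 and 29.7 CPM against 35.4 CPM, and in MV4-11 106.9 and 147 CPM against 214 CPM. In all 6 genes the OCI-AML3 DMSO library was the lowest of that line and the MV4-11 DMSO library the highest of MV4-11, and each line has 1 DMSO library. The smallest p in the other direction belonged to PTPN22, PLD4, BORA, BTN3A1 and TTK, none of which passed (adjusted p = 0.261 to 0.365). PTP4A3, a phosphatase, had 5.25, 7.72 and 1.7 CPM in OCI-AML3, against 46.5, 36.9 and 54 CPM in MOLM-14 and 47.9, 37.9 and 49.1 CPM in MV4-11. Its level was lower in OCI-AML3, with a difference of -3.40 (SE 0.57), and its difference in response, 2.465 (adjusted p = 0.0672), did not pass. That response passed in 9 of 16 alternatives, DESeq2 and limma-voom among them, and had the same sign in all 16.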

How the data were processed

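The authors deposited a table of estimated counts per transcript, 203027 transcripts by 12 libraries, of which 89.8% of the values above 0 were not whole (tolerance 1e-06). The submitters' processing notes name GRCh38 and the tools STAR, fastp, featureCounts, FastQC and DESeq2; the step that gave these estimated counts, its strand setting and its versions are not given in the sources used here. Transcripts were matched to GENCODE release 29 (99.958%), summed to 57865 genes and rounded to whole numbers. Of the 9 libraries of OCI-AML3, MOLM-14 and MV4-11, genes passing edgeR's filter (at least 10 counts, total 15, by line) were kept, 16120 in all. They were fitted in edgeR 4.0.16 (R 4.3.3) with line and treatment as terms, TMM scaling and the robust quasi-likelihood F test, 4 residual degrees of freedom, Benjamini-Hochberg adjusted. The difference in drug response was a further term, 3 residual degrees of freedom. The fit was checked on simulated data. CPM are scaled by TMM and are not divided by gene length, so levels are compared between libraries and not between genes.

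Named genes were the 12 protein-coding genes with the widest gap between OCI-AML3 and the other lines in each direction, the 3 noncoding ones, the leading called members of each gene list and a few fixed genes of the study's question. Some of these genes, and 1 of the lists, are not reported here. The members and lists were chosen with earlier results of these data known. Alternatives used DESeq2 1.42.0, limma 3.58.1, other scaling and filters, libraries thinned to the depth of the shallowest and single libraries left out. Intervals and the limit of 3 counts cover counting error or fitted error only. GC content came from the longest GENCODE transcript. Genes specific to a line were taken from those of at least 30 CPM in that line.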

Additional observations from a re-analysis of the deposited data

Results flagged for a closer look

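In all, 6 results stood out because the response to the drugs, taken as the mean of both drugs minus DMSO, differed between OCI-AML3 and the mean of MOLM-14 and MV4-11 by a test of that difference (edgeR's quasi-likelihood test, Benjamini-Hochberg adjustment over 16120 genes, 1 library per line and treatment). All 6 were higher in OCI-AML3.

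ENSG00000232035, a long intergenic noncoding RNA (chromosome 9, 10631750 to 10632203, minus strand), had 5.25, 30.9 and 0.708 CPM in OCI-AML3, against 3.95, 10.1 and 12.3 CPM in MOLM-14 and 42.3, 111 and 133 CPM in MV4-11, with pioglitazone, darglitazone and DMSO in this order. Its difference in response was 5.49 (SE 0.41, adjusted p = 0.000802) on the log2 scale. KLLN, which encodes a DNA-binding protein that slows S phase (chromosome 10, 87859161 to 87863437, minus strand), had 9.62, 32.8 and 2.48 CPM in OCI-AML3, against 7, 15.4 and 21.7 CPM in MOLM-14 and 35.9, 64 and 87.5 CPM in MV4-11. Its difference in response was 3.997 (SE 0.37, adjusted p = 0.00237). In both genes OCI-AML3 was lowest with DMSO, and MV4-11 highest with DMSO.

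KLF15, whose levels are given in the report, had a difference in response of 3.05 (SE 0.28, adjusted p = 0.00237), and AHNAK 2.27 (SE 0.26, adjusted p = 0.0118). DPPA4, a chromatin protein of pluripotent cells (chromosome 3, 109326141 to 109337572, minus strand), had 7.88, 11.8 and 0.944 CPM in OCI-AML3, against 2.93, 6.77 and 6.7 CPM in MOLM-14 and 27.8, 79 and 117 CPM in MV4-11. Its difference in response was 4.12 (SE 0.45, adjusted p = 0.00882). ENSG00000262160, an antisense transcript (chromosome 16, 68225969 to 68229145, minus strand), had 20.1, 13.9 and 0.299 CPM in OCI-AML3, against 3.46, 8.85 and 8.49 CPM in MOLM-14 and 145, 366 and 479 CPM in MV4-11, a difference in response of 6.32 (SE 0.69, adjusted p = 0.0201).

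The call of AHNAK was lost without MOLM-14 DMSO or MV4-11 DMSO (log2 differences then 2.20 to 2.32), and that of DPPA4 without MV4-11 DMSO (3.76). Without OCI-AML3 DMSO the difference cannot be estimated, since the line has no other DMSO library.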

How the results depend on the processing

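No gene called in OCI-AML3 against both lines was called in the opposite direction under any alternative that was run, but counts moved. By limma-voom 1927 genes were called higher. Thinned to equal depth, 830 were higher and 856 lower (1889 and 1744 against the mean of both lines, 1578 and 1642 against MOLM-14, 1954 and 2036 against MV4-11). With MOLM-14 and MV4-11 as 1 group, where a call rests on 1 contrast alone, 777 were higher and 838 lower, against 2883 and 2773 for the mean of both lines. Leaving out single libraries gave 867 to 1427 higher and 1032 to 1380 lower, and 1565 to 2688 higher against MOLM-14 alone. The difference in drug response gave 66 higher and 30 lower by DESeq2, 23 and 7 by limma-voom, 80 and 59 without a filter, 24 and 5 without OCI-AML3 pioglitazone and MV4-11 DMSO, 18 and 3 with GC content as an offset, and 3 to 218 higher and 0 to 465 lower without single libraries. Leaving out OCI-AML3 pioglitazone with MV4-11 DMSO and the GC offset were chosen after seeing the data.

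Genes not called that changed sign were KMT2A, at -0.004 by DESeq2, -0.063 by limma-voom, -0.073 with 1 group, -0.111 without the pioglitazone libraries, -0.068 without OCI-AML3 pioglitazone and MV4-11 DMSO, -0.031 with GC content as an offset and -0.111 to 0.190 without single libraries. HOXA9 was at -0.003 without the pioglitazone libraries, -0.041 without OCI-AML3 pioglitazone and MV4-11 DMSO and -0.026 to 0.122 without single libraries. Without single libraries CD34 was at -3.171 to 0.837 and SPI1 at -0.024 to 0.477. DNMT3A was at -0.127 when thinned, and with 1 group HOXA6 was at -0.063 and HOXA11 at -0.156. The cause was not tested. Over the named genes, 2892 values kept direction and side of the threshold, 274 lost and 68 gained a call.

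No paired analysis was possible because the labels give no replicate numbers; the treatment, shared by 1 library of each line, is a term of the model. The depth of OCI-AML3 pioglitazone limits what can be seen of genes under 2.625 CPM there.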
